A study of Homo sapiens with 3 samples.

Results

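NFE2L2, KEAP1, NQO1, HMOX1, GCLC, GCLM, TXNRD1, TXN, SRXN1 and GPX4, called the NRF2 antioxidant response genes here, were followed in C33A cells. They include the genes of the transcription factor NRF2 (NFE2L2) and of its inhibitor KEAP1. Whether NRF2 governs each member in these cells was not tested. The members are 10 of the 18417 genes that the arrays measured through probe sets with a single gene symbol. They were chosen by name, with earlier results of these data known. Each was measured by 1 probe set, and no probe set carried a member together with another gene. The arrays hold RNA of 3 independent, untreated cultures of exponentially growing C33A cells, a human cervix carcinoma line kept in medium with serum, each hybridized to its own Human Gene 1.0 ST array of Affymetrix. All samples are thus 1 group of 1 cell line, and no condition was compared with another.

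NRF2, encoded by NFE2L2, is a basic leucine zipper factor that KEAP1 presents to the CUL3 ubiquitin ligase for destruction in unstressed cells. Oxidants and electrophiles modify cysteines of KEAP1, NRF2 accumulates, pairs with a small MAF protein and binds the antioxidant response element of its target genes. These targets make glutathione, reduce thioredoxin, repair oxidized peroxiredoxins and detoxify quinones and haem, and mutations of the NRF2 and KEAP1 genes that keep the factor active are found in several carcinomas.

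The sequences that the pathway reads are shown first. RefSeq promoter windows of GRCh38.p14, which hold 250 bases before and 50 bases after a transcript start, were matched by symbol for 9 of the 10 members, in 14 windows since 4 genes have several starts. HMOX1 had no match. The core of the antioxidant response element, TGACNNNGC on either strand, stood in the windows of GCLM, KEAP1 and TXNRD1, with 6 matches in 4 of the 14 windows (28.6%). Of all 35116 promoter windows 13.3% hold these letters, so that a match is a description and not a site of binding. The matches are given on the strand on which the core reads in this form, with the core in capitals and 10 bases on each side. Bases are counted from the transcript start, negative before it, and starts are numbered in the direction of transcription.
GCLM, core from base -34 to base -26, chr1:93909446-93909474, plus strand: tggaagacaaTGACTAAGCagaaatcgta
TXNRD1 start 2, core from base -102 to base -94, chr12:104286920-104286948, minus strand: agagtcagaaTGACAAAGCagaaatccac
TXNRD1 start 1, core from base -99 to base -91, chr12:104215670-104215698, plus strand: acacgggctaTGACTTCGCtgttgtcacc
TXNRD1 start 1, core from base -8 to base +1, chr12:104215761-104215789, minus strand: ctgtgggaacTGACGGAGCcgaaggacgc
KEAP1 start 2, core from base -31 to base -23, chr19:10502784-10502812, plus strand: caggtcaccaTGACTAAGCagagccgggc
KEAP1 start 2, core from base -54 to base -46, chr19:10502807-10502835, minus strand: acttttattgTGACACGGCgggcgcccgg
The GCLM core and the KEAP1 core nearest its start have the same 9 letters, and the 3 letters after the core are also the same. The GCLM core and the core of TXNRD1 start 2 differ within the core but are followed by the same 7 letters. Both KEAP1 matches belong to its second start, which lies downstream of the first, and the first window held none.

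NQO1 and GCLM are set side by side because both are textbook targets of NRF2 and differed in level in these cells. The 250 bases before their starts are printed with the element core and the GC box, GGGCGG on either strand, the binding letters of SP1 family factors, in capitals.
GCLM promoter, chr1:93909431-93909680, minus strand: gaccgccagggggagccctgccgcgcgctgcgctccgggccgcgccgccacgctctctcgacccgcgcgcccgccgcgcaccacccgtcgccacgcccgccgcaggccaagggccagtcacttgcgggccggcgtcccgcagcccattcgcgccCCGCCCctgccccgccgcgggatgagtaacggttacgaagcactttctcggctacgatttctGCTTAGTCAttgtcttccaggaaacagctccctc
NQO1 promoter, chr16:69726561-69726810, minus strand: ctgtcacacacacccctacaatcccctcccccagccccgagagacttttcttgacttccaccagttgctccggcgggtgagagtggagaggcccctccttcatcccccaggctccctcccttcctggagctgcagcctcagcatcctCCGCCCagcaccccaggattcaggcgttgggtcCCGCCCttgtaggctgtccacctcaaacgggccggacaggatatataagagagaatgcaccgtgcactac
The GCLM promoter held 1 core and 1 GC box, and the NQO1 promoter held 2 GC boxes in the stretch printed and no core. No match says only that these letters are not in this window. NQO1 also had the fewest CpG dinucleotides of the first windows, 14 in 300 bases (observed over expected 0.506), where the other first windows had 27 to 46. The second TXNRD1 window was lower, with 12 CpG.

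**Figure D1:**
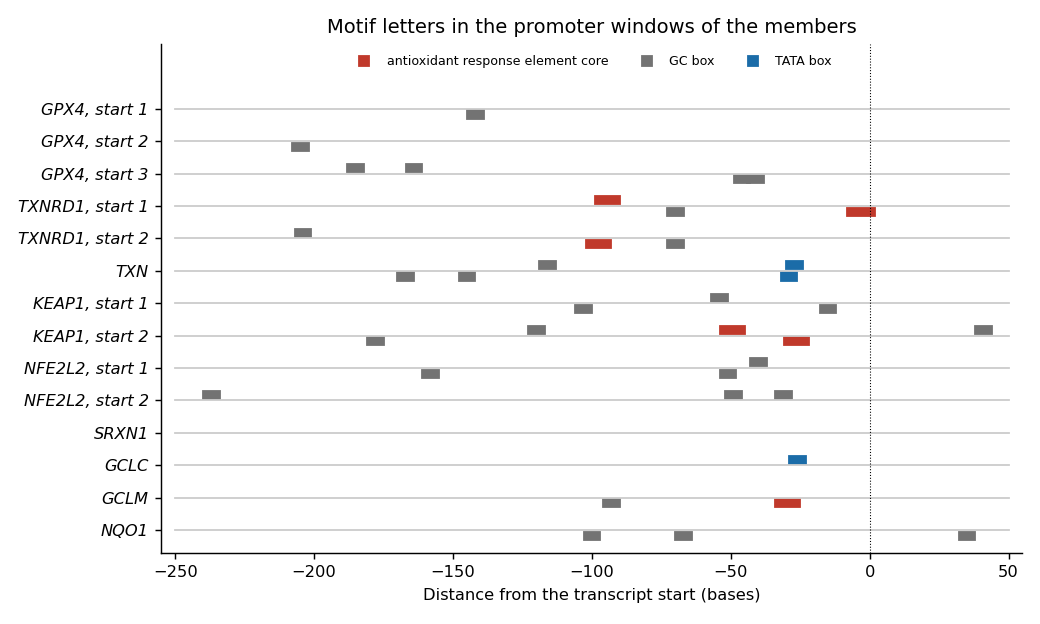
Positions of motif letters in the promoter windows of the members, with the distance from the transcript start in bases on the x axis and 1 line per window. Boxes above a line are on the strand of the gene and boxes below it on the opposite strand. The element core (red) stands in windows of TXNRD1, KEAP1 and GCLM, and the NQO1 and SRXN1 windows hold none.

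GC boxes were the commonest of the letters searched, in 12 of the 14 windows and 7 of the 9 genes, against 15786 of all 35116 windows. The windows of GPX4 starts 1 and 2 overlap and hold the same GC box, so the windows are not independent. The GC content of the member windows was 53.7% to 80%, against a median of 58.7% over all windows. TATAAA, 1 form of the TATA box, stood before GCLC and TXN, 29 and 30 bases before their starts. Of all windows 11.5% hold these letters on either strand. Other forms of the box were not searched, so a window with no match, as that of NQO1, may still hold one. No member window held the E2F letters TTTCGCGC (0.515% of all windows) or TTTGGCGC (0.652%), the AP-1 site TGACTCA or its complement TGAGTCA (4.95%), or the T form of the core, TGATNNNGC (7.51%). An AP-1 site overlaps the core where GC follows it.

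The deposited values are log2 intensities after Robust Multichip Average normalization, and no detection call comes with them. Pearson's r between the arrays was 0.993 to 0.994 over all probe sets, and the array medians over genes were 6.90 to 6.92. A background bound of 6.41 was taken from 456 genes whose families few tissues express, those of beta-defensins, hair keratin partners (KRTAP) and the receptors of smell and taste. It is their 95th percentile, and they are called the silent families here. Because probes differ in sequence and thus in brightness, the order of genes is approximate, and with only 3 arrays each level has limited precision. Of the markers checked, 1 of 5 epithelial genes exceeded the bound, KRT18 at 7.75, while KRT8, KRT19, CDH1 and EPCAM did not (4.52 to 5.92). KRT14 at 6.86 did and KRT5 at 5.03 did not, with TP63 not analysed here. Genes that mark other cells gave 0 of 4 endothelial and 1 of 4 leukocyte genes (PTPRC at 8.82) above the bound. Of 5 fibroblast genes 2 exceeded it (COL3A1 at 11.36, COL1A1 at 7.24), where 56.5% of all genes did. The identity of the cells therefore rests on the labels, and what these markers mean for the levels below was not tested.

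Of the 10 members, 9 exceeded the background bound, on all 3 arrays, and NQO1 did not on any. Among all genes 56.5% exceeded it. The median level of the members was 9.48 log2, against 6.91 for all genes, whose middle 50% lay between 5.18 and 8.68. GPX4, TXNRD1, TXN and KEAP1 were in the highest decile of genes by level, 4 of 10 members where 10% of all genes are by construction. These counts describe the members and were not tested.

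**Figure D2:**
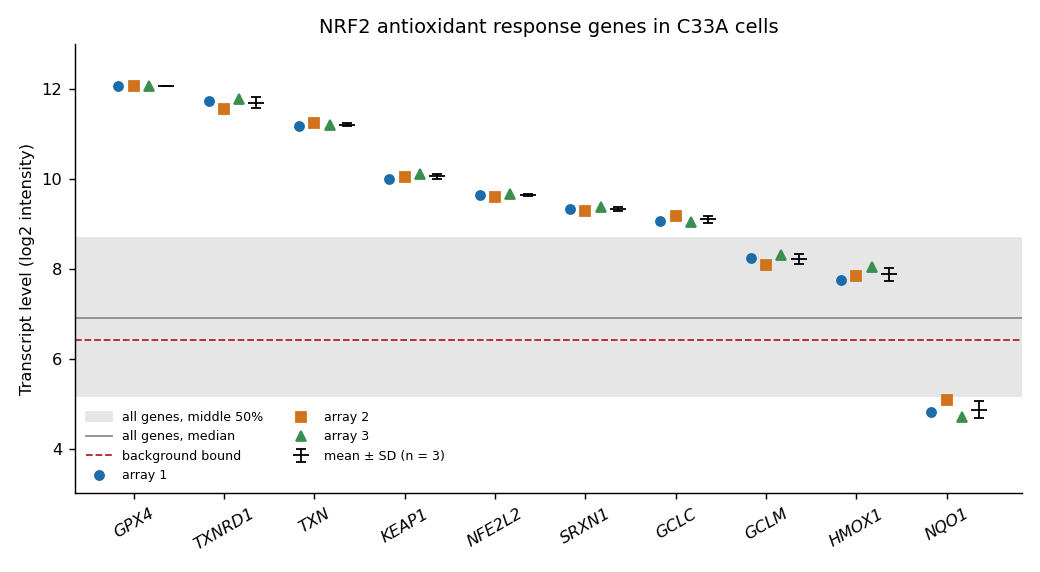
Transcript level (y axis, log2 intensity) of the 10 members (x axis) on each of 3 arrays, with the mean ± SD beside the points. The grey band holds the middle 50% of all genes and the dashed line is the background bound. GPX4 is highest at 12.07 and NQO1 lowest at 4.86, the only member under the line.

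The factor and its inhibitor were both well above the bound. NFE2L2 was at 9.64, 9.61 and 9.65 log2 on arrays 1, 2 and 3, a mean of 9.63 ± 0.02 (SD, n = 3 cultures) that 11.9% of genes exceeded. KEAP1, the cysteine-rich adaptor that senses electrophiles, was at 10.003, 10.05 and 10.12, a mean of 10.06 ± 0.06 (SD, n = 3). The ranges of the values did not overlap, with KEAP1 0.42 ± 0.05 log2 above NFE2L2 (SD of the difference, n = 3). Transcript levels do not give the amount of NRF2 protein, which KEAP1 sets after translation.

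The thioredoxin branch held 2 of the 3 highest members. TXNRD1, the cytosolic selenoenzyme that passes electrons of NADPH to thioredoxin, was at 11.74, 11.55 and 11.78, a mean of 11.69 ± 0.12 (SD, n = 3), with array 2 below the other arrays. Only 0.956% of genes had a higher mean. TXN, the small dithiol protein that TXNRD1 reduces, was at 11.18, 11.25 and 11.19, a mean of 11.21 ± 0.03 (SD, n = 3). SRXN1, sulfiredoxin, which restores overoxidized peroxiredoxins, was lower at 9.33, 9.28 and 9.37, a mean of 9.33 ± 0.05 (SD, n = 3).

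GPX4, the selenoenzyme that reduces lipid hydroperoxides in membranes and so holds back ferroptosis, was the highest member at 12.06, 12.07 and 12.07, a mean of 12.07 ± 0.0090 (SD, n = 3). Its values lay within 0.02 log2 of each other, and 0.543% of genes had a higher mean.

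Glutamate-cysteine ligase, the enzyme of the first step of glutathione synthesis, has a catalytic and a modifier subunit, which differed in level. GCLC, the catalytic subunit, was at 9.07, 9.18 and 9.04, a mean of 9.10 ± 0.07 (SD, n = 3). GCLM, the modifier subunit that raises the activity of GCLC, was at 8.23, 8.09 and 8.30, a mean of 8.21 ± 0.11 (SD, n = 3). GCLC was 0.89 ± 0.18 log2 above GCLM (SD of the difference, n = 3), higher on each array. Array 2 gave the highest value of GCLC and the lowest of GCLM.

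The 2 remaining enzymes, HMOX1 and NQO1, were the lowest members. HMOX1, the inducible haem oxygenase that opens haem to biliverdin, was at 7.74, 7.85 and 8.03, a mean of 7.87 ± 0.14 (SD, n = 3), above 62.8% of genes. Its mean was 1.46 log2 above the bound but just under 7.88, the 99th percentile of the silent families, and 5 of their 456 genes had a higher level. GCLM was close to HMOX1 in level, with its lowest value 0.06 log2 above the highest value of HMOX1.

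NQO1, the quinone reductase often used as a reporter of NRF2 activity, was the only member not above the bound. It was at 4.81, 5.08 and 4.70, a mean of 4.86 ± 0.20 (SD, n = 3), which 79.0% of genes exceeded. The mean minus the background bound was -1.55 log2, and the level lay within the range of the silent families, of which 99 of 456 genes (21.7%) were higher. Against the olfactory receptor genes alone, whose 95th percentile was 5.37, the difference was -0.50 log2. The signal of NQO1 could thus not be told from background, and this does not show that its transcript was absent.

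**Figure D3:**
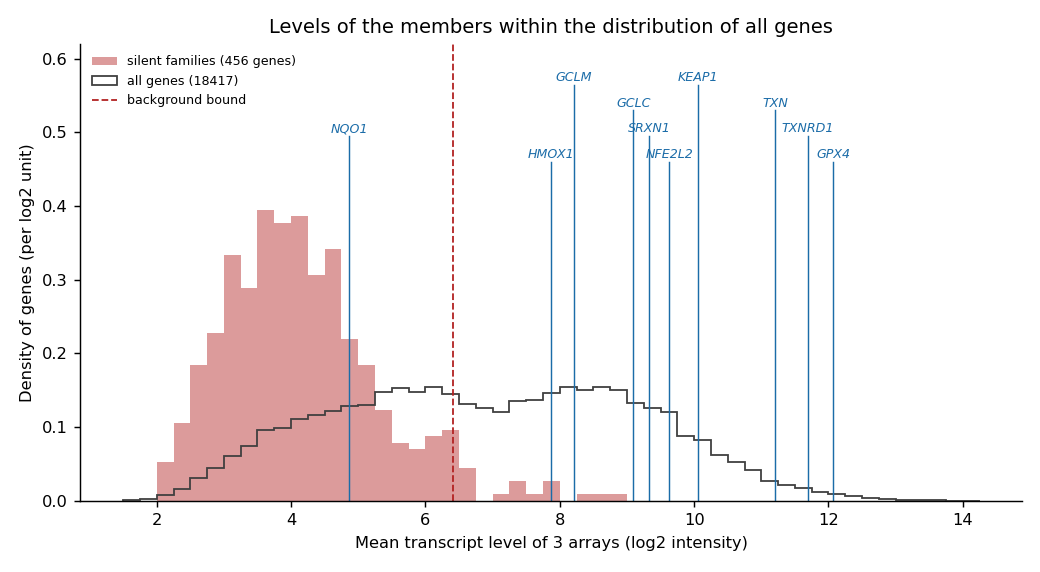
Density of genes (y axis, per log2 unit) by mean transcript level of 3 arrays (x axis, log2 intensity), for the silent families (red) and all genes (outline). Blue lines mark the members. NQO1 at 4.86 lies among the silent families, and the other 9 members lie to the right of the bound at 6.41.

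In order of level the members ran GPX4, TXNRD1, TXN, KEAP1, NFE2L2, SRXN1, GCLC, GCLM, HMOX1 and NQO1, and this order was the same on each array. The values of neighbours did not overlap in any of the 9 pairs. By mean the closest pairs were SRXN1 and GCLC, 0.23 ± 0.12 log2 apart, NFE2L2 and SRXN1, 0.31 ± 0.02 apart, and GCLM and HMOX1, 0.33 ± 0.14 apart (SD of the difference, n = 3). An exact permutation test of 3 against 3 values cannot give a p under 0.1, so none was run, and the different probes add to these distances an amount that cannot be told from these data.

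The median SD of the members between cultures was 0.06 log2, against 0.08 for all genes, and it was 0.03 without array 2. Since low signals vary more and most members were high, each SD was set beside the median SD of genes in the same decile of level. GPX4, NFE2L2, TXN and SRXN1 were below that median, and GPX4 was at 0.207 times it, although quantile normalization of the gene values gave it an SD of 0.03 in place of 0.0090. The other 6 were above it, with TXNRD1 the farthest at 2.80 times the 0.04 of its decile, then HMOX1 at 2.06, GCLM at 1.60, NQO1 at 1.56, GCLC at 1.39 and KEAP1 at 1.31 times. Array 3 gave the highest value of 6 members and array 2 of 4, while the lowest value was on array 1 for 4, on array 2 for 4 and on array 3 for GCLC and NQO1. The cultures share 1 condition, and nothing was read from their differences.

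**Figure D4:**
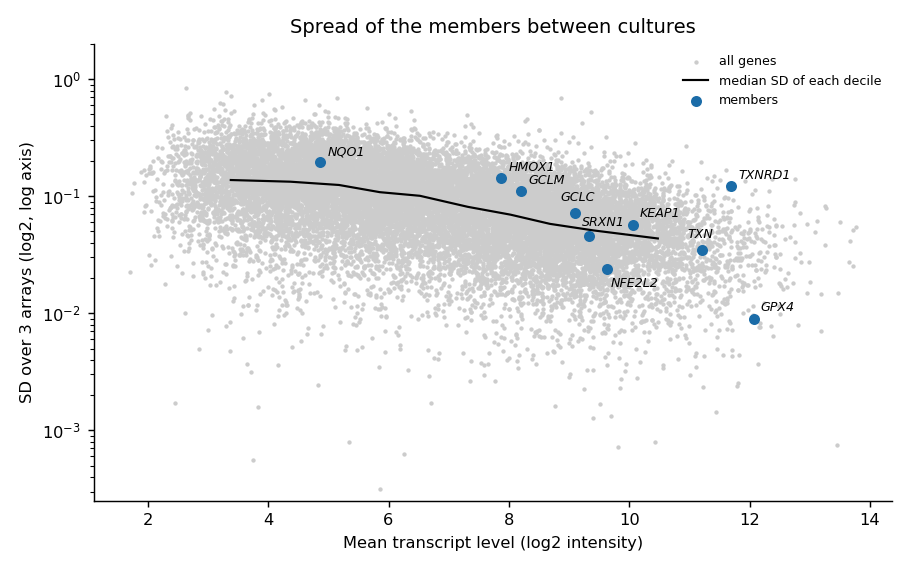
SD over 3 arrays (y axis, log2 units on a log axis) against mean transcript level (x axis, log2 intensity) of all genes (grey) and the members (blue), with the median SD of each decile of genes as a line (a gene with an SD of 0 cannot be drawn). TXNRD1 at 0.12 lies above the 0.04 of the highest decile, where the line ends, and GPX4 at 0.0090 below it.

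The other genes of the pathway were taken from 9 lists with 83 genes, of which 75 were measured and 53 exceeded the bound (70.7%, against 56.5% of all genes). The partners and turnover factors of NRF2 were mostly above it, 10 of 11. CUL3, the scaffold of the KEAP1 ligase, was at 10.52 ± 0.05 (SD, n = 3), its ring subunit RBX1 at 9.73 ± 0.05 and SQSTM1, which carries KEAP1 to autophagy, at 9.73 ± 0.03. BTRC, the adaptor of a second route of NRF2 destruction, was at 8.97 ± 0.12 (SD, n = 3). Among factors related to NRF2, NFE2L1, which drives proteasome genes, was at 10.33 ± 0.02 and NFE2L3 at 7.69 ± 0.05, while NFE2, the erythroid member, at 5.00 ± 0.11 was not above the bound (SD, n = 3).

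Repressors and partners at the element were measured as well. BACH1, which represses HMOX1 until haem displaces it, was at 7.90 ± 0.18 and BACH2 at 8.79 ± 0.07 (SD, n = 3). Of the small MAF partners, MAFG was at 7.80 ± 0.03 over 3 probe sets that ranged from 6.89 to 8.62, and MAFF was just above the bound at 6.51 ± 0.07 (SD, n = 3). MAFK is not analysed here.

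All 8 measured genes of glutathione supply exceeded the bound, against 56.5% of all genes. GSR, the reductase that regenerates glutathione, was highest at 11.45 ± 0.03, followed by SLC3A2 at 10.68 ± 0.07 and glutathione synthetase (GSS) at 10.31 ± 0.03 (SD, n = 3). SLC7A11, the cystine carrier that pairs with SLC3A2, was lowest at 6.70 ± 0.06 (SD, n = 3). OPLAH at 6.80 ± 0.07 and the cysteine-forming enzyme CTH at 6.87 ± 0.08 were close to it (SD, n = 3). GGCT was at 9.31 ± 0.05 and CHAC1, which breaks glutathione down, at 7.52 ± 0.05 (SD, n = 3). CBS and GGT1 are not analysed here. With the bound at the 99th percentile of the silent families, 4 of the 8 exceeded it, and the share of all genes above that bound is not given here.

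Of the other thioredoxin and peroxiredoxin genes, 7 of 8 exceeded the bound (against 56.5% of all genes), with a median level of 9.03. PRDX1 at 12.11 ± 0.02, PRDX3 at 11.86 ± 0.05 and PRDX6 at 11.40 ± 0.02 were in the highest decile of genes, with PRDX4 at 9.60 ± 0.03 and PRDX2 at 7.62 ± 0.06 (SD, n = 3). The mitochondrial pair, TXN2 at 8.47 ± 0.07 and TXNRD2 at 8.07 ± 0.05, had lower signals than TXN and TXNRD1 (SD, n = 3). TXNIP, the inhibitor of thioredoxin, was not above the bound, at 5.44 ± 0.07 (SD, n = 3). TXNRD3 and PRDX5 are not analysed here.

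Of the paralogs of GPX4, 2 of 7 (28.6%) had a signal above the bound, against 56.5% of all genes. With the bound at the 99th percentile of the silent families 1 did, and the share of all genes above that bound is not given here. GPX8, which sits in the endoplasmic reticulum, was at 9.85 ± 0.13 and GPX1, the cytosolic enzyme, at 6.56 ± 0.02 over 2 probe sets at 6.27 and 6.86, on either side of the bound (SD, n = 3). GPX2, an enzyme of the digestive tract, was at 4.42 ± 0.14 and GPX3 at 5.41 ± 0.09 (SD, n = 3). GPX5 was at 3.92 ± 0.04, GPX6 at 4.34 ± 0.08 and GPX7 at 4.93 ± 0.08 (SD, n = 3). Of the genes that build selenoproteins such as GPX4 and TXNRD1, 5 of 6 exceeded the bound, namely SEPHS1 at 10.23 ± 0.08, SEPHS2 at 8.95 ± 0.07, EEFSEC at 8.39 ± 0.17, SECISBP2 at 8.22 ± 0.04 and SEPSECS at 7.04 ± 0.05 (SD, n = 3). PSTK, the kinase of the seryl tRNA, was at 6.36 ± 0.22 and above the bound on 1 array of 3.

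Detoxification enzymes and exporters, the list nearest to NQO1 in function, had 8 of 19 genes above the bound (42.1%, against 56.5% of all genes) and a median level of 5.65. With the bound from the olfactory receptor genes alone 12 of the 19 exceeded it, and 6 did with the 99th percentile of the silent families. As the share of all genes above these other bounds is not given here, only the count of 8 can be set beside all genes. The highest were GSTP1, a glutathione transferase, at 12.28 ± 0.02, PTGR1 at 10.22 ± 0.06 and the exporter ABCC1 at 9.54 ± 0.03 (SD, n = 3). The lowest were MGST1 at 2.78 ± 0.14, the aldo-keto reductase AKR1B10 at 3.44 ± 0.13 and GSTM3 at 3.92 ± 0.13 (SD, n = 3). Named after their values were seen, AKR1C1 at 5.65 ± 0.39, AKR1C2 at 4.83 ± 0.35 and AKR1C3 at 4.41 ± 0.18 were also not above it (SD, n = 3). These are near-identical copies whose probes may share signal. NQO2, the paralog of NQO1, also named after its value was seen, was at 7.87 ± 0.08 (SD, n = 3).

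Among genes of haem and iron, 6 of 7 exceeded the bound, against 56.5% of all genes. HMOX2, the constitutive paralog of HMOX1, was at 10.23 ± 0.03 and biliverdin reductase BLVRA at 9.39 ± 0.03 (SD, n = 3). Ferrochelatase (FECH) was at 9.496 ± 0.03 and the ferritin light chain FTL at 9.24 ± 0.06 (SD, n = 3). ABCB6 was at 7.78 ± 0.09, BLVRB at 7.38 ± 0.03 and the iron exporter SLC40A1 at 3.69 ± 0.16, the last not above the bound (SD, n = 3). FTH1 is not analysed here.

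NADPH, which TXNRD1, GSR and NQO1 all consume, is made by enzymes of which 4 of 5 were in the highest decile. That decile holds 10% of all genes by construction. PGD was at 11.89 ± 0.02, IDH1 at 10.85 ± 0.06, TKT at 10.68 ± 0.01 and TALDO1 at 10.57 ± 0.04 (SD, n = 3). Malic enzyme (ME1) was at 3.45 ± 0.12 and not above the bound (SD, n = 3). Of the enzymes that act on superoxide and peroxide without being typical NRF2 targets, SOD1 was at 11.46 ± 0.0050, SOD2 at 9.26 ± 0.04 and catalase (CAT) at 8.31 ± 0.03, and the secreted SOD3 was not above the bound at 5.58 ± 0.07 (SD, n = 3).

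**Figure D5:**
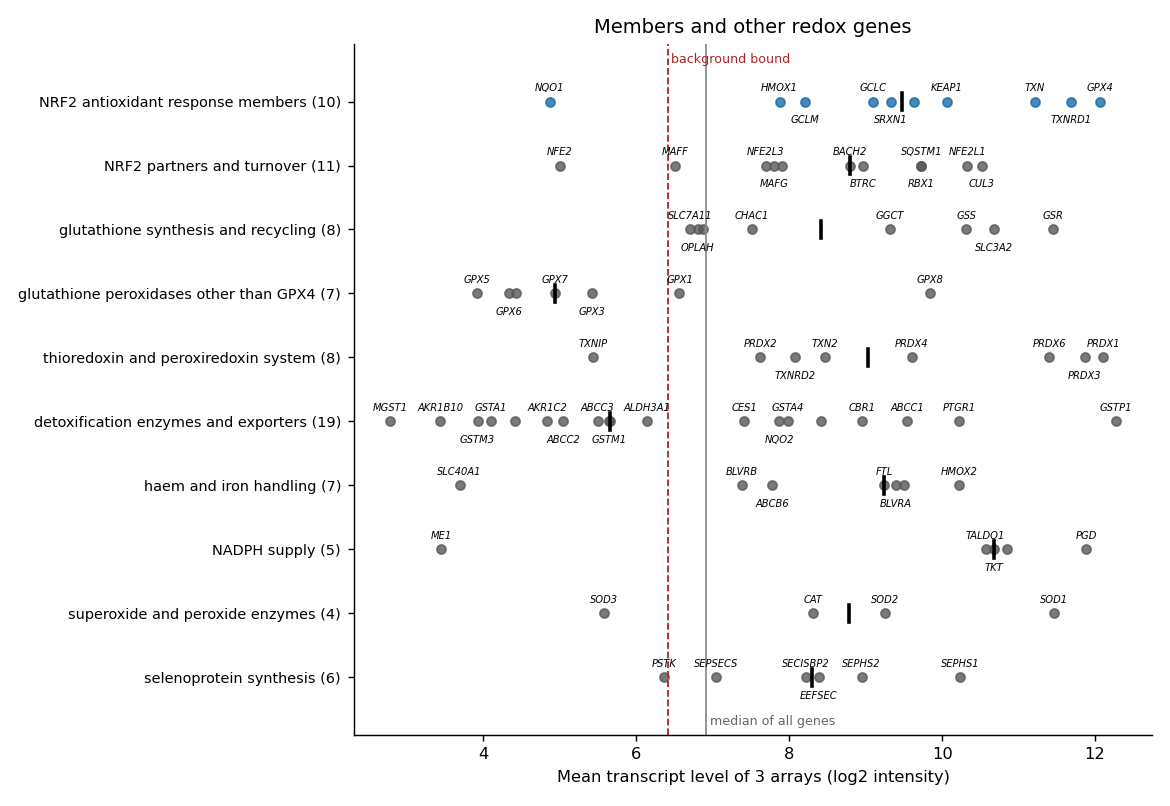
Mean transcript level of 3 arrays (x axis, log2 intensity) of the members (blue, top row) and of the measured genes of 9 redox lists (grey), with the median of each row as a short bar and the number of genes in brackets. Names are left out where points crowd. NQO1 lies left of the bound at 6.41 with ME1, AKR1B10 and MGST1, and the members have a median of 9.48.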

How the data were processed

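The authors hybridized RNA of 3 C33A cultures, 1 array each (Human Gene 1.0 ST, Affymetrix), and deposited log2 intensities after Robust Multichip Average (RMA) normalization and further steps in oneChannelGUI (versions not given in the sources used here). RMA corrects background, gives the arrays a common distribution and summarizes probes, which narrows differences between arrays and compresses low signals.

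Of 33297 probe sets, 19460 carry 1 symbol in the platform annotation, 1754 several (left out) and 12083 none listed. Symbols were updated by gene ID through RefSeq (GRCh38.p14) for 18388 of 18417 genes, and where several probe sets carried the same gene, as for 769 genes, their mean was used. Levels are means ± SD over arrays, and no test across genes was run. The members and lists were chosen with earlier results of these data known. Named genes are the members, every gene of lists of up to 12, and the 3 highest and 3 lowest of the longer list. Alternatives left out each array and changed the probe set, normalization, bound and gene universe. Python 3.11.15, NumPy 2.4.6, pandas 2.3.3 and matplotlib 3.10.9 were used.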

Additional observations from a re-analysis of the deposited data

How the results depend on the processing

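Of 173 values recomputed under the alternatives, 167 kept their size within the spread between arrays or within 1.5 times the count, 6 moved and 0 reversed. By this rule the fall from 9 to 8 members with the 99th percentile counts as kept. So does the rise from 8 to 12 detoxification genes with the olfactory receptor genes alone. NQO1 stayed under the bound in each, at -3.01 log2 relative to it with the 99th percentile of the silent families at -0.50 with the olfactory receptor genes alone and at -1.67 to -1.42 with an array left out. Members above the bound numbered 9 in all settings except the 99th percentile, where 8 remained since HMOX1 at 7.87 fell under 7.88. The median SD of the members was 0.0289 to 0.0802 with an array left out, lowest without array 2, each then an SD of 2 values. The genes of the lists above the bound numbered 39 with the 99th percentile and 61 with the olfactory receptor genes, against 53. The share of all genes above those other bounds is not given here, so counts at them have no background share beside them. At the 99th percentile 4 glutathione genes and 1 GPX4 paralog exceeded it, against 8 and 2, and quantile normalization of the gene values gave GPX4 an SD of 0.03. Without detection calls or raw intensities, signals near the bound cannot be told from background.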
